A study of Mus musculus with 5 samples.

Results

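The genes described here are 10 genes of protein folding and stress signalling in the endoplasmic reticulum (ER), out of 23234 genes in the table. They were chosen by name: the chaperones Hspa5 and Hsp90b1, the lectin chaperones Calr and Canx, the disulfide isomerases Pdia3, Pdia4 and Pdia6, and the stress transcription factors Atf4, Atf6 and Ddit3. All 10 were in the table, and all 10 were among the 10242 genes that reached 1 FPKM or more in 2 libraries and were tested. FPKM is a fragment count scaled to transcript length and library size, a level that can be compared between genes because it is per length.

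Expression was measured by RNA sequencing in light zone B cells of the germinal centre, which present antigen to T cells and are selected by them, sorted from mouse spleen. The donor cells were naive B cells on a C57BL/6 background that carried B1-8hi(KI/+), a heavy chain that binds the hapten NP, and ERT2cre(KI/+), a Cre that tamoxifen switches on. They were Csk(+/+) or Csk(fl/fl) and, marked by CD45.1/2, were transferred into C57BL/6J hosts given NP-CGG in alum on day 0 as antigen. Both groups received tamoxifen on days 8 and 9, and NP-binding donor light zone cells were sorted on day 11. The Csk(+/+) group has 3 libraries and the Csk(f/f)-labelled group 2, described in the design text as biological replicates. No age is given in the labels, which also do not say whether mice were pooled for a library. The comparison asks how expression differs once Csk, the kinase that holds Src family kinases inactive, has been deleted in selected B cells.

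Steps between the lowest FPKM values put the depth at about 9700000 to 24000000 fragments. Csk(+/+) replicate 3 stood apart in its group, with a library weight of 0.259 in limma where the other Csk(+/+) libraries had 1.35 and 1.55. The 2 Csk(f/f)-labelled libraries necessarily share the same weight (1.36), so the weights cannot set either of them apart. Csk itself had no lower level with the Csk(f/f) label (453 and 476 FPKM, against 378 to 436 in Csk(+/+)), a two-sided exact permutation test giving p = 0.2 where the smallest these 10 splits allow is 0.1. After a correction for transcript GC content, described below, the direction turned (log2 difference from 0.18 to -0.14), with both Csk(f/f)-labelled values lower and limma adjusted p = 0.818. A value per gene includes exons outside a deleted part and so leaves the genotype unchecked, and the groups are called by their labels. The germinal centre gene Bcl6 had 81.7, 75.2 and 60.1 FPKM in Csk(+/+), then 55.6 and 59.2, lower without overlap. Its log2 difference was -0.32, and -0.37 after the GC correction, still without overlap. Rgs13 (-1.23, then -0.62) was also lower without overlap on both scales, and S1pr2 (0.33, then 0.23) higher. Ms4a1 (-0.63) and Gcet2 (-0.39) were lower without overlap only as deposited. All but Bcl6 were chosen after their values were seen. The 11 germinal centre markers summed to 3566 to 4804 and 4500 to 4768 FPKM, which overlapped. Summed markers of T cells lay between 0.894 and 1.64 FPKM in all 5 libraries, while erythroid markers summed to 238 to 1253 FPKM in Csk(+/+) and 269 to 685 in the Csk(f/f)-labelled libraries. Macrophage markers summed to 12.6 to 23.3 and 25.9 to 27.0 FPKM, without overlap. Light zone markers summed to 724 to 763 and 837 to 862 FPKM, also without overlap. Cd83 made up much of that sum (379, 403 and 388 FPKM, then 515 and 487). Cd86 (80.5, 73.2 and 76.0, then 63.4 and 56.9) and Bcl2a1a (55.5, 44.6 and 54.0, then 44.1 and 37.9) were lower without overlap. Both overlapped after the GC correction. Egr3 (7.03, 7.71 and 3.64, then 11.3 and 9.62) was higher without overlap. Cd83 (log2 difference 0.36, then 0.25) and Egr3 (0.73, then 0.64) stayed higher without overlap with the correction. Nfkbia overlapped on both scales, and Myc was lower without overlap only with the correction. Stromal and follicular dendritic cell markers summed to 15.0 to 23.1 and 11.5 to 12.2 FPKM. Most of that sum was Cr2 (17.5, 22.4 and 14.3 FPKM, then 11.6 and 11.1), whose groups overlapped after the GC correction. Of the same list Col1a1, Col1a2, Pdgfra, Pdgfrb and Madcam1 each stayed under 0.7 FPKM in every library. The part of these cells in the results was not tested.

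The ER is where secreted and membrane proteins, antibodies and B cell receptors among them, are folded. BiP, the product of Hspa5, binds unfolded chains and also holds the sensors IRE1, PERK and ATF6 inactive. When unfolded protein draws BiP away, the unfolded protein response starts: ATF6 and XBP1 raise chaperone genes, and PERK slows translation while ATF4 is made. Germinal centre B cells keep their secretory programme low, and it expands when they become plasma cells.

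The promoters of these genes are shown first because several hold the sequence through which ATF6 and XBP1 act. This ER stress response element (ERSE) was searched as the letters CCAAT, then any 9 bases, then CCACG, where NF-Y binds the left part and ATF6 or XBP1 the right. Both strands of the 250 bases before each RefSeq gene start (build GRCm38.p6) were searched. A window was given for 9 of the 10 genes, all but Atf6, and 5 of the 9 held the element: Hspa5, Hsp90b1, Calr, Canx and Pdia6. Of all 32851 promoter windows, 0.113% held it, a share of windows rather than of genes. Of 113 genes with a window in the wider lists of ER folding and stress genes read below, 4 held it: Creld2, Derl3, Dnajc3 and Syvn1. Capitals mark the element, and each sequence runs 5′ to 3′ in the direction of its gene. A longer stretch of the window is given for both lectin chaperones (bases 250 to 11 before the start), whose means differed in opposite directions, and for Hsp90b1 (bases 250 to 71), the one gene with the element in both orientations.
Hspa5 (chr2:34772020-34772048, plus strand): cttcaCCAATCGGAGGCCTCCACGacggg
Pdia6 (chr12:17266486-17266514, plus strand): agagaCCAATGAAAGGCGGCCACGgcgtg
Hsp90b1 (chr10:86705515-86705694, minus strand): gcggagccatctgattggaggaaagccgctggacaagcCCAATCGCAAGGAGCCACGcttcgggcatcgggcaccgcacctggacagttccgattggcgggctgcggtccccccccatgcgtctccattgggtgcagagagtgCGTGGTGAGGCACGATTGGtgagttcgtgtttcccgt
Calr (chr8:84846942-84847181, minus strand): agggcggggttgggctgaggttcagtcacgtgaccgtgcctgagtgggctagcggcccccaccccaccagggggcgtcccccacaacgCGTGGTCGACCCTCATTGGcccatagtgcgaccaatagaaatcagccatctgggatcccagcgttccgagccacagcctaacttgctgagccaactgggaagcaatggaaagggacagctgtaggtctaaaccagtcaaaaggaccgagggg
Canx (chr11:50325684-50325923, minus strand): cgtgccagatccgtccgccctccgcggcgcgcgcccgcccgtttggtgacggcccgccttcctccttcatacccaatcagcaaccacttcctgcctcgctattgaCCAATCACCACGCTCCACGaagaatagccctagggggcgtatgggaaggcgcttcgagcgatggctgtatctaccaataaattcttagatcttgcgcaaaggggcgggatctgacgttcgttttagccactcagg
The element began 65 bases before the start of Hspa5, 98 before Pdia6, 145 before Canx and 162 before Calr, and at 212 and 107 before Hsp90b1. In Calr, and at the nearer site of Hsp90b1, it lay in reverse. The related ERSE-II letters (ATTGG, any 1 base, CCACG, in 0.0304% of all windows) and the ATF4 element letters (TGATGNAA, in 3.45%) occurred in 0 of the 9 windows. Of the 113 wider-list genes, 1 (Herpud1) held ERSE-II and 13 the ATF4 element. Such a match describes these letters in this window only. The 5 genes described here that share the ERSE did not share a direction in the libraries, as the values below give. Hspa5, Hsp90b1 and Canx had lower means, Calr a higher one, and Pdia6 differed little.

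In the comparison, 0 of the 10 genes passed an adjusted p under 0.05 by limma, where 8 of all genes tested (0.0781%) did, 0.0391% as higher and 0.0391% as lower. The largest differences were in 4 genes, Hspa5, Hsp90b1, Canx and Pdia3, whose mean FPKM was 25.6% to 35.2% lower in the Csk(f/f)-labelled libraries. At an unadjusted p under 0.05 by limma these 4 of 10 genes were lower, where 13.6% of all tested genes were, and 0 were higher, where 8.07% were (21.7% in either direction). Of all genes at that threshold 37.2% were higher, a share that became 47.5% with median-ratio scaling, 48.7% with quantile normalization and 49.1% with the GC correction described below. The values of the groups did not overlap for 5 genes with lower values, the same 4 and Atf6, and for 1 with higher values, Calr. Over all tested genes 24.5% had lower and 20.7% higher values without overlap. The median log2 difference of the 10 genes was -0.18, beside -0.01 over all genes tested. Where a bulk level is lower, fewer cells that express the gene and less RNA per cell cannot be told apart.

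**Figure D1:**
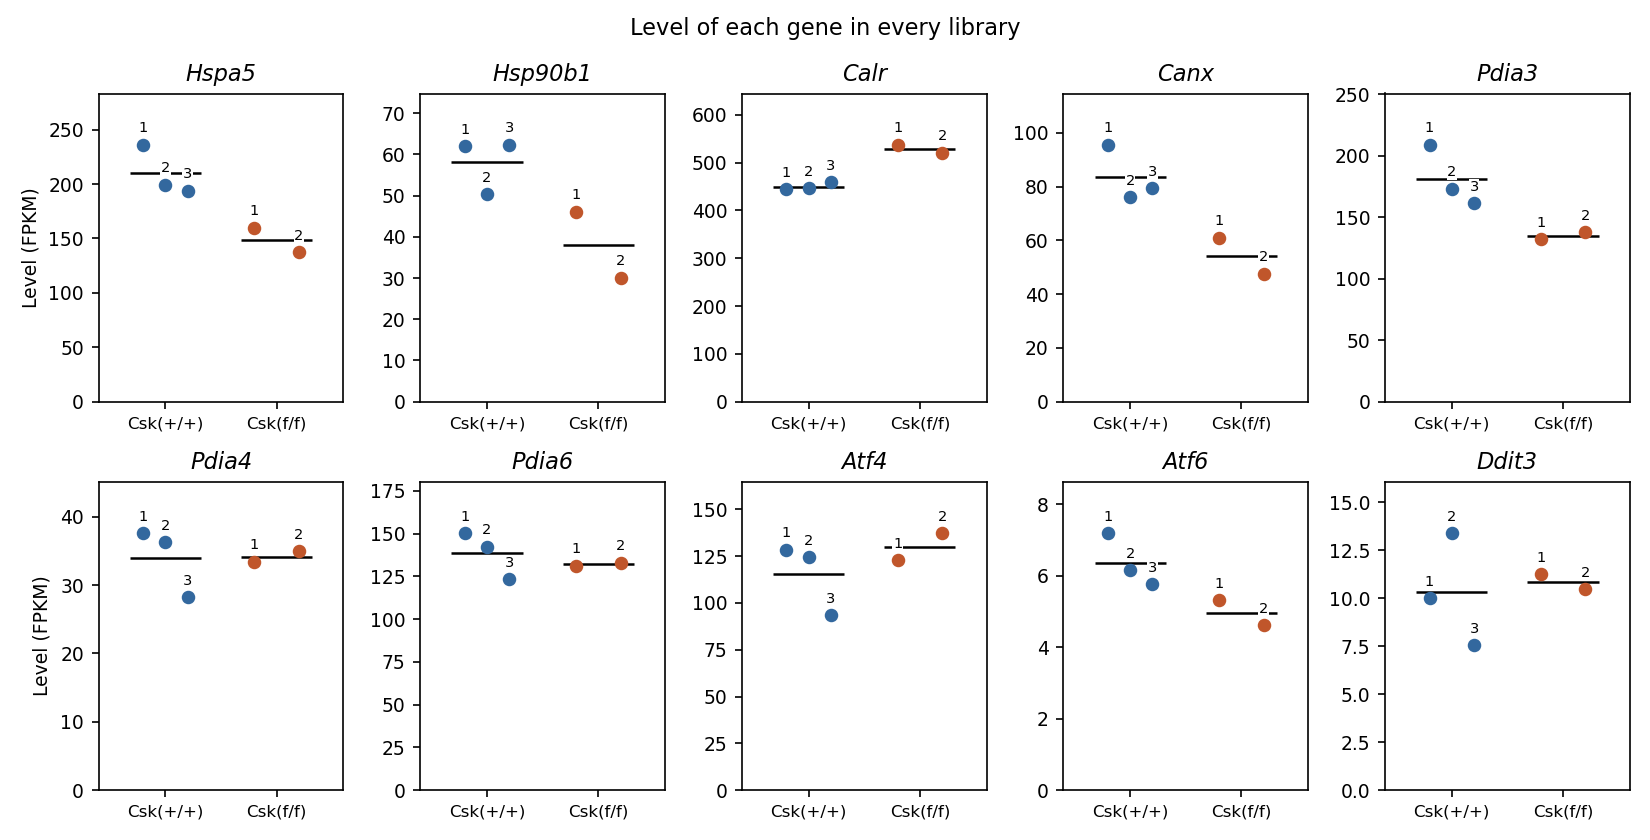
FPKM of each of the 10 genes (vertical axes from 0) in the 3 Csk(+/+) libraries (blue) and the 2 Csk(f/f)-labelled libraries (orange), with replicate numbers beside the points and a bar at each group's mean. Hspa5, Hsp90b1, Canx, Pdia3 and Atf6 lie lower in both Csk(f/f)-labelled libraries than in any Csk(+/+) library, Calr lies higher, and the other 4 overlap.

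The order of the levels was the same in both groups. From the highest mean to the lowest it ran Calr, Hspa5, Pdia3, Pdia6, Atf4, Canx, Hsp90b1, Pdia4, Ddit3 and Atf6. Calr, at 450 ± 7.96 FPKM (SD, n = 3) in Csk(+/+), ranked 178 among the 10242 tested genes by its mean over all libraries, and Atf6, at 6.37 ± 0.735, ranked 7074. Neighbours in this order were not all apart. In Csk(+/+) the libraries of Hspa5 and Pdia3 overlapped, as did those of Pdia6 and Atf4 and of Atf4 and Canx. With the Csk(f/f) label Hspa5 overlapped Pdia3, Hsp90b1 overlapped Pdia4, and Pdia3, Pdia6 and Atf4 lay between 123 and 138 FPKM.

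Among the chaperones, Hspa5 had 236, 199 and 194 FPKM in Csk(+/+), against 160 and 137 with the Csk(f/f) label. Both Csk(f/f)-labelled values lay lower than every Csk(+/+) value, and replicate 1 was the highest of its group in each. The log2 difference was -0.50 ± 0.15 (SE, 95% CI -0.83 to -0.16, limma adjusted p = 0.164). Hsp90b1 encodes GRP94, the ER form of HSP90, which folds integrins and Toll-like receptors. It had 62.0, 50.3 and 62.3 FPKM in Csk(+/+), against 46.0 and 30.1 with the Csk(f/f) label. The groups did not overlap, but the Csk(f/f)-labelled libraries were themselves far apart. Its log2 difference was -0.62 ± 0.20 (SE, limma adjusted p = 0.176), which became -0.92 without Csk(f/f) replicate 1 and -0.33 without Csk(f/f) replicate 2.

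The lectin chaperones calnexin and calreticulin bind the same sugar on new glycoproteins, one anchored in the membrane and the other soluble. Canx, for calnexin, had 95.5, 76.0 and 79.4 FPKM in Csk(+/+) and 60.9 and 47.5 with the Csk(f/f) label, which were lower than any Csk(+/+) library. The log2 difference was -0.62 ± 0.16 (SE, 95% CI -1.0 to -0.24, limma adjusted p = 0.155). Calr, for calreticulin, had 444, 446 and 459 FPKM and then 537 and 520. Both Csk(f/f)-labelled libraries were higher than all Csk(+/+) libraries, with a narrow spread in each group, and the log2 difference was 0.23 ± 0.13 (SE, 95% CI -0.07 to 0.54, limma adjusted p = 0.317). The ratio of Calr to Canx FPKM was thus 4.65, 5.87 and 5.78 in Csk(+/+) and 8.81 and 10.9 with the Csk(f/f) label. This ratio was chosen after its values were seen and is given without a test.

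Protein disulfide isomerases make and rearrange disulfide bonds, and Pdia3 (ERp57) does so on chains held by calnexin or calreticulin and in the class I peptide-loading complex. Pdia3 had 209, 173 and 162 FPKM in Csk(+/+) and 132 and 138 with the Csk(f/f) label. These did not overlap, and the log2 difference was -0.42 ± 0.15 (SE, 95% CI -0.76 to -0.07, limma adjusted p = 0.192). The other isomerases did not separate the groups. Pdia4 (ERp72) had 37.6, 36.3 and 28.2 FPKM and then 33.4 and 34.9, a log2 difference of 0.02 with a 95% CI from -0.36 to 0.39. Pdia6 (P5) had 150, 142 and 123 FPKM and then 131 and 133, a log2 difference of -0.06 with a 95% CI from -0.37 to 0.24. For both genes the Csk(f/f)-labelled values lay within the Csk(+/+) range, whose lowest value was Csk(+/+) replicate 3. Summed over the 7 chaperones and isomerases the level was 1235, 1123 and 1108 FPKM in Csk(+/+) and 1100 and 1040 with the Csk(f/f) label. Calr made up 36.0%, 39.7% and 41.4% of that sum in Csk(+/+) and 48.8% and 50.0% in the others.

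Of the transcription factors, Atf4, the effector of PERK and of the wider integrated stress response, had 128, 124 and 93.5 FPKM in Csk(+/+) and 123 and 137 with the Csk(f/f) label. The groups overlapped and the log2 difference was 0.18 with a 95% CI from -0.21 to 0.57. ATF4 is controlled largely at translation, which these values do not measure. Atf6, the membrane-bound sensor whose cut fragment enters the nucleus, had 7.19, 6.16 and 5.77 FPKM and then 5.32 and 4.61, without overlap (log2 difference -0.30, 95% CI -0.74 to 0.14, limma adjusted p = 0.36). Ddit3, which encodes the pro-death factor CHOP, had 9.99, 13.4 and 7.54 FPKM and then 11.2 and 10.5. Its Csk(f/f)-labelled values lay inside the Csk(+/+) range, and the log2 difference was 0.10 with a 95% CI from -0.45 to 0.65. Ddit3 rested on about 88 to 261 fragments per library and Atf6 on about 324 to 924, the fewest of the 10 genes. In the GRCm38 annotation 68 bases of Ddit3 overlap Mars, on the opposite strand, which reached 72.6 FPKM, and whether the counting used strand is not given in the sources used here. Hsp90b1 overlaps an opposite-strand pseudogene listed at up to 3.63 FPKM, and the genes overlapping Pdia3 and Pdia6 by 18 and 50 bases reached 1.02 and 0.255 FPKM.

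The differences of these genes were read beside the base composition of their transcripts, since differences across the whole table followed it. Over 10119 tested genes with a GC value the log2 difference had a Spearman rho of 0.71 with the GC content of the longest transcript, and over the 10 genes here it was 0.84, both across genes measured in the same 5 libraries. The 4 genes lower at an unadjusted p under 0.05 had a GC content of 42.1% (Hsp90b1), 42.2% (Canx), 45.6% (Hspa5) and 46.9% (Pdia3), while Calr had 50.0% and Atf4 55.5%. Tested genes within 1 percentage point of the GC content of Canx had a median log2 difference of -0.39, beside -0.62 for Canx itself. The corresponding medians were -0.39 for Hsp90b1, -0.24 for Hspa5 and -0.17 for Pdia3, so all 4 genes lay lower than the median of genes of like composition. Canx, Hsp90b1, Hspa5 and Pdia3 each also lay lower than the lower quartile of such genes (-0.55, -0.55, -0.41 and -0.35). These 4 were picked as lower in the same libraries, so this placing is partly fixed by that choice and is no test. Atf6 (-0.30), also lower without overlap, lay between the median (-0.22) and the lower quartile (-0.38) of its GC neighbours. Calr (0.23) lay higher than the upper quartile of its GC neighbours (0.16), and Ddit3 (0.10) higher than that of its own (-0.05).

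**Figure D2:**
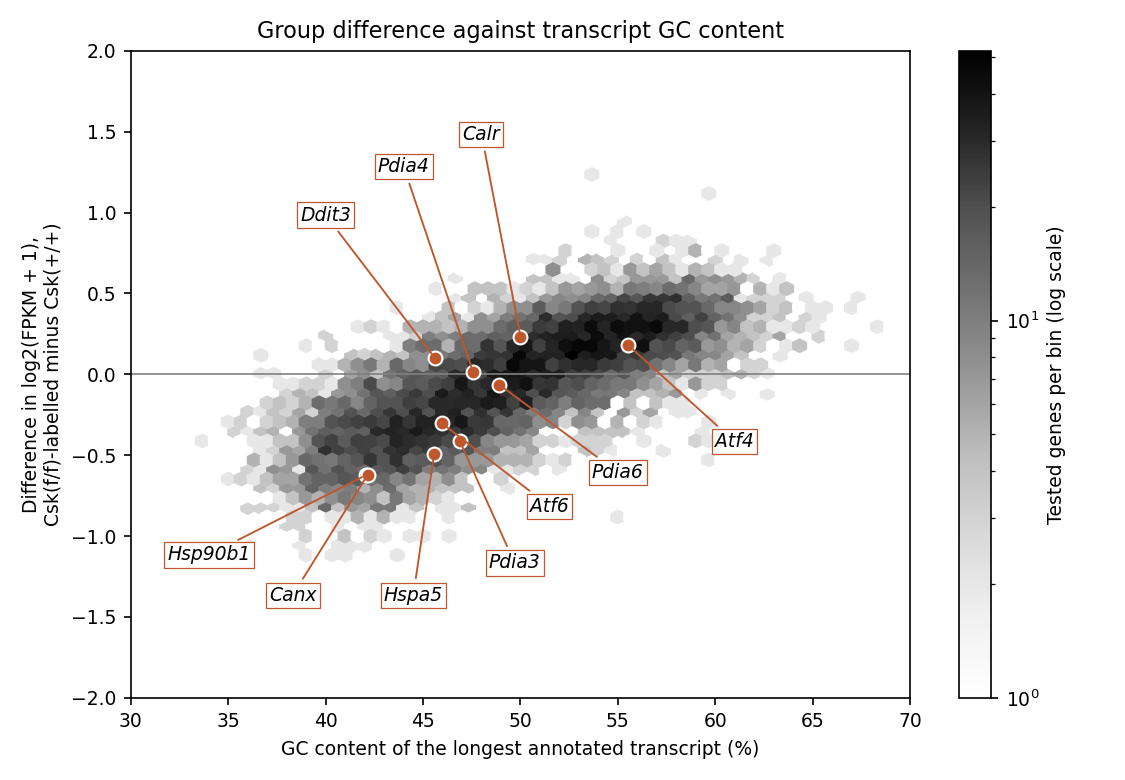
Log2 difference, Csk(f/f)-labelled minus Csk(+/+), against transcript GC content in percent for tested genes (grey, number per bin on a log scale) and the 10 genes (orange, named). The cloud slopes upward and Canx and Hsp90b1 lie near its low-GC end, at 42.2% and 42.1%. Of 10119 genes, 51 lie outside the plotted range.

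After the GC trend of each library was subtracted, 0 of the 10 genes passed an adjusted or an unadjusted p under 0.05 by limma, where 0.0791% of genes passed the adjusted threshold (0.0395% higher, 0.0395% lower) and 9.96% the unadjusted one (4.89% higher, 5.07% lower). The log2 differences became -0.26 ± 0.13 (SE) for Hspa5, -0.25 ± 0.13 for Pdia3, -0.23 ± 0.16 for Hsp90b1 and -0.23 ± 0.13 for Canx, with limma adjusted p-values of 0.571, 0.571, 0.696 and 0.598. Calr kept 0.22 ± 0.16 and Pdia6 was at -0.01. Atf4 turned from 0.18 to -0.06, and Ddit3 moved from 0.10 to 0.33 ± 0.21. On the corrected scale the groups did not overlap for Hspa5, Canx and Pdia3, which were lower (3 of 10, beside 13.9% of all genes), and for Calr and Pdia4, which were higher (2 of 10, beside 14.6%).

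**Figure D3:**
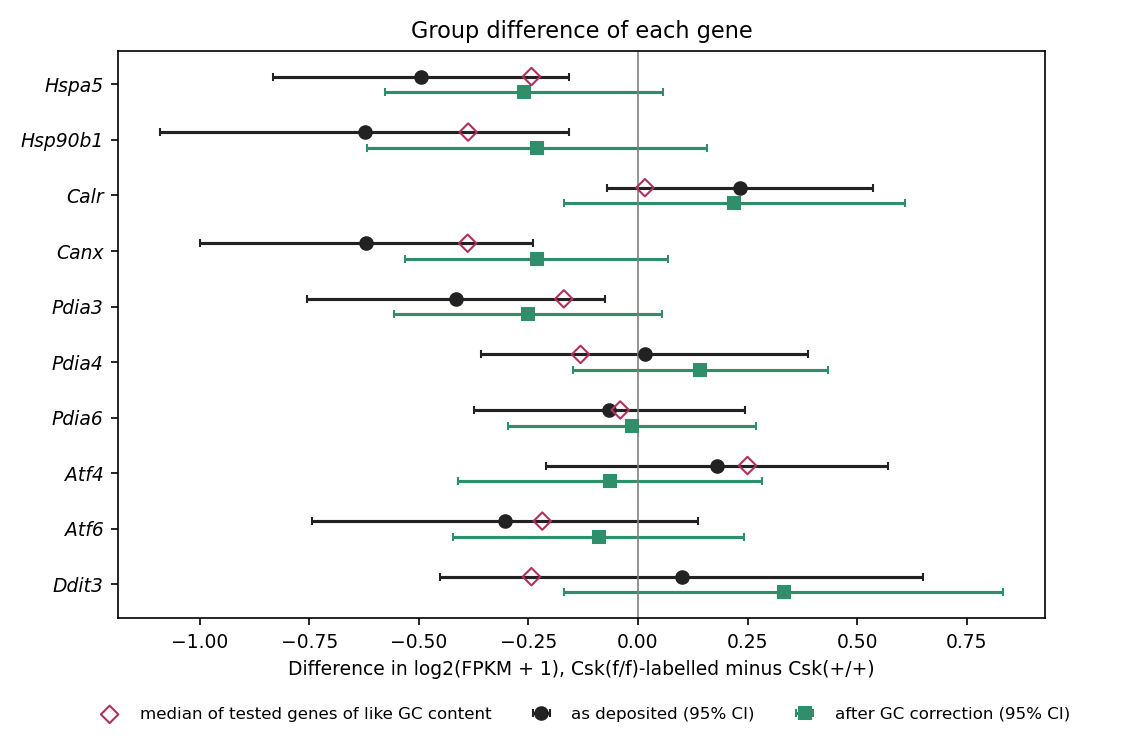
Difference in log2(FPKM + 1), Csk(f/f)-labelled minus Csk(+/+), with 95% confidence intervals, as deposited (black circles) and after GC correction (green squares), and the median of tested genes within 1 percentage point of the same GC content (open diamonds). The intervals of Hspa5, Hsp90b1, Canx and Pdia3 leave out 0 as deposited and include it after the correction.

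The calls of these 4 genes depended on single libraries. Without Csk(f/f) replicate 2, the shallowest library, 0 of the 10 genes had an unadjusted p under 0.05 by limma, with log2 differences of -0.39 for Hspa5, -0.33 for Hsp90b1, -0.44 for Canx and -0.45 for Pdia3. Without Csk(+/+) replicate 3 they were -0.55, -0.57, -0.65 and -0.49 with adjusted p-values of 0.0523, 0.0936, 0.0546 and 0.0549, and over all tested genes 411 passed in place of 8. With the GC correction and without that library, Hspa5 (-0.26) and Pdia3 (-0.27) had an unadjusted p under 0.05 as lower and Calr (0.29) as higher. None of the 3 passed when adjusted over all genes. Pdia3 also had an unadjusted limma p of 0.063 without Csk(+/+) replicate 1 and of 0.137 without Csk(f/f) replicate 1.

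The profile of Hspa5 over the 5 libraries was compared with that of every other gene as the Euclidean distance between log2 values centred on each gene's mean. Among 7388 other genes whose mean reached 5 FPKM, the 6 nearest were Srsf11, Fam49b, Ppp3r1, Mfap1b, Zfand5 and Mfap1a, at distances from 0.04 to 0.07. The GC content of their transcripts was lower than that of Hspa5 in all 6, from 38.1% upward. Of the genes described here Canx (0.18), Atf6 (0.22) and Pdia3 (0.23) were nearest to Hspa5, with 151, 256 and 295 of the 7388 genes nearer than each. Calr (0.84) was among the farthest, with 4354 genes nearer. Mfap1a and Mfap1b are near-identical copies, and how reads were divided between them is uncertain. None of the 6 nearest genes was on a list of ER folding or stress genes.

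The wider pathway was read from 6 lists with 132 tested genes apart from the 10. By limma 0 of the 132 passed an adjusted p under 0.05. At an unadjusted p under 0.05, 16 were higher and 15 lower, and the median log2 difference was 0.14. Over all tested genes 8.07% were higher and 13.6% lower at that threshold, the shares beside which the counts of each list below stand. After the GC correction 8 of the 132 were higher and 4 lower, beside 4.89% and 5.07% of all genes, with a median of 0.05. The 15 lower genes had a transcript GC content from 35.3% to 47.2% and the 16 higher genes from 51.1% to 60.3%.

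Among other ER chaperones and co-chaperones, an unadjusted p under 0.05 was reached by 1 higher and 3 lower genes of 15 tested (0 and 0 after GC correction), with a median of 0.07. Dnajc10 (ERdj5), a J-domain partner of BiP, had 26.7 ± 2.96 FPKM in Csk(+/+) (SD over 3 libraries) and 18.4 ± 4.81 with the Csk(f/f) label (SD over 2, in this order for the genes that follow), and Dnajb9 (ERdj4), a target of XBP1, had 6.98 ± 0.261 and 4.84 ± 0.734. The other lower gene was Dnajc3, chosen after its values were seen. After the GC correction the log2 differences of Dnajc10, Dnajb9 and Dnajc3 went from -0.53, -0.46 and -0.46 to -0.26, -0.01 and -0.11. Cnpy3, a co-chaperone of Toll-like receptor folding, had 50.4 ± 6.42 and 69.5 ± 2.41 FPKM (limma adjusted p = 0.173), and its log2 difference went from 0.46 to 0.17. The genes Hyou1, Sdf2l1, Creld2 and Manf had no unadjusted p under 0.05. Hyou1 (GRP170) had 47.9 ± 8.20 and 58.9 ± 6.19 FPKM, Sdf2l1 89.0 ± 5.24 and 103 ± 11.9, Creld2 44.6 ± 7.30 and 56.4 ± 2.36, and Manf 53.7 ± 3.45 and 56.5 ± 2.07. All 4 had higher means while Hspa5 had a lower one, and after the GC correction their log2 differences were 0.17, -0.07, 0.13 and 0.00.

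For disulfide isomerases, oxidases and prolyl isomerases, 0 higher and 3 lower genes of 16 tested had an unadjusted p under 0.05 (1 and 0 after GC correction), with a median of 0.11. Tmx1, a membrane-bound isomerase, had 20.6, 20.4 and 18.6 FPKM in Csk(+/+) and 13.2 and 10.7 with the Csk(f/f) label, the most negative log2 difference of all 132 genes (-0.69 ± 0.16, SE, limma adjusted p = 0.154). Erp44, which retains thiol-bound cargo such as IgM subunits, had 116, 110 and 117 FPKM and then 84.4 and 78.6, and Tmx3 had 6.43 ± 0.597 and 4.03 ± 0.976. After the GC correction Tmx1, Erp44 and Tmx3 went from -0.69, -0.49 and -0.57 to -0.26, -0.08 and 0.01. P4hb, the founding member of the isomerase family, had 146 ± 17.7 and 162 ± 14.2 FPKM.

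In the calnexin cycle, glycosylation and translocation list 3 higher and 4 lower genes of 27 tested had an unadjusted p under 0.05, with a median of 0.12. After the GC correction 5 were higher and 1 lower, with a median of 0.06. Lman1, the cargo receptor ERGIC-53, had 15.9 ± 2.70 FPKM in Csk(+/+) and 9.80 ± 0.493 with the Csk(f/f) label, and its log2 difference went from -0.64 to -0.33 after GC correction (limma adjusted p = 0.5). Spcs3, a signal peptidase subunit, had 33.5 ± 4.44 and 22.2 ± 4.77 FPKM. Ddost, a subunit of the oligosaccharyltransferase, had 92.6 ± 13.4 and 122 ± 4.35. The differences of Spcs3 and Ddost went from -0.58 to -0.12 and from 0.41 to 0.16. For ER-associated degradation, which returns misfolded proteins to the proteasome, 4 higher and 0 lower genes of 25 tested had an unadjusted p under 0.05 (1 and 1 after GC correction). By sign 12 were positive and 13 negative, with a median of 0.00. The 4 were Aup1 (89.0 and 120 FPKM), Edem2 (24.6 and 32.9), Man1b1 (28.4 and 38.5) and Nploc4, the last chosen after its values were seen, with corrected log2 differences of 0.11, 0.24, 0.25 and 0.25 in place of 0.42, 0.41, 0.44 and 0.41. Edem1 (39.3 ± 7.10 and 36.7 ± 1.30 FPKM) and Herpud1 (159 ± 3.29 and 173 ± 3.87), both targets of the unfolded protein response, had limma adjusted p-values of 0.79 and 0.527.

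The sensors and their transcription factors had the highest median of the lists, 0.25 (0.13 after GC correction), and 4 higher and 1 lower gene of 14 tested had an unadjusted p under 0.05 (0 and 0 after GC correction). Atf6b, the paralogue of Atf6, had 54.4, 57.9 and 40.3 FPKM in Csk(+/+) and 72.5 and 75.3 with the Csk(f/f) label, a log2 difference of 0.55 ± 0.17 (SE, limma adjusted p = 0.175) opposite in sign to that of Atf6. Atf6b transcripts have a GC content of 60.3% and Atf6 transcripts one of 46.0%, and after the correction the differences were 0.22 and -0.09. Xbp1 had 79.8, 87.4 and 93.4 FPKM and then 116 and 101, without overlap (0.32 ± 0.13, limma adjusted p = 0.223), but its groups overlapped after the GC correction, at 0.16. A value per gene does not separate spliced from unspliced Xbp1. Its splicing enzyme Ern1 (IRE1) was under 1 FPKM in every library and was not tested. Eif2ak3, the sensor PERK, had 23.1 ± 6.10 and 20.6 ± 2.34 FPKM. Tmbim6, an ER membrane inhibitor of cell death, had 186 ± 4.44 and 239 ± 9.55, and Nfyb, a subunit of the NF-Y factor that binds the ERSE, had 14.5 ± 1.43 and 9.54 ± 0.237. Their log2 differences went from 0.36 to 0.18 and from -0.55 to -0.18 with the correction.

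In the integrated stress response and ATF4 target list 4 higher and 4 lower genes of 35 tested had an unadjusted p under 0.05 (1 and 2 after GC correction), with a median of 0.18 (0.03 after GC correction). The smallest p-values belonged to lower genes: the threonyl and asparaginyl tRNA synthetase genes Tars (44.2 ± 4.07 and 29.4 ± 2.70 FPKM) and Nars (59.9 ± 3.11 and 43.3 ± 2.28), and Eif2s1, the translation factor eIF2α that PERK phosphorylates (45.7 ± 6.68 and 29.6 ± 2.80). Their limma adjusted p-values were 0.154, 0.155 and 0.155. After the GC correction the log2 differences of Tars, Nars and Eif2s1 went from -0.57, -0.46 and -0.60 to -0.38, -0.31 and -0.17. Other tRNA synthetase genes of the list, chosen after their values were seen, had positive differences: Sars 0.38, Wars 0.30, Aars 0.28 and Gars 0.06. Sars and Wars had an unadjusted p under 0.05 by limma. With the GC correction Sars, Wars, Aars and Gars were at 0.21, 0.13, 0.01 and 0.03. The amino acid transporter genes Slc7a5 (64.1, 64.9 and 47.6 FPKM, then 78.6 and 83.7) and Slc3a2 (60.3, 66.1 and 61.1, then 77.6 and 75.9) had higher values without overlap. They were chosen after their values were seen. Their log2 differences were 0.47 and 0.29, and 0.20 and 0.12 after the GC correction. The transporter genes Slc7a1 (0.22) and Slc7a11 (0.06) of the same list overlapped between groups. With the GC correction Slc7a1 was at 0.13 and still overlapped, and Slc7a11 was at 0.50 without overlap. Asns, Ppp1r15a, Trib3 and Chac1 overlapped between groups as deposited. With the GC correction Asns (0.16, then 0.29) was higher without overlap, and Ppp1r15a, Trib3 and Chac1 still overlapped. Asns had 31.7 ± 3.19 and 35.5 ± 0.816 FPKM, Ppp1r15a (GADD34) 8.26 ± 2.00 and 10.0 ± 0.0618, Trib3 1.29 ± 0.451 and 1.89 ± 0.184, and Chac1 1.78 ± 1.30 and 1.04 ± 0.576. Atf3 stayed at 0.212 FPKM or less in all libraries, and the amino acid sensor kinase gene Eif2ak4 (GCN2) had 7.14 ± 2.18 and 6.04 ± 0.613.

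**Figure D4:**
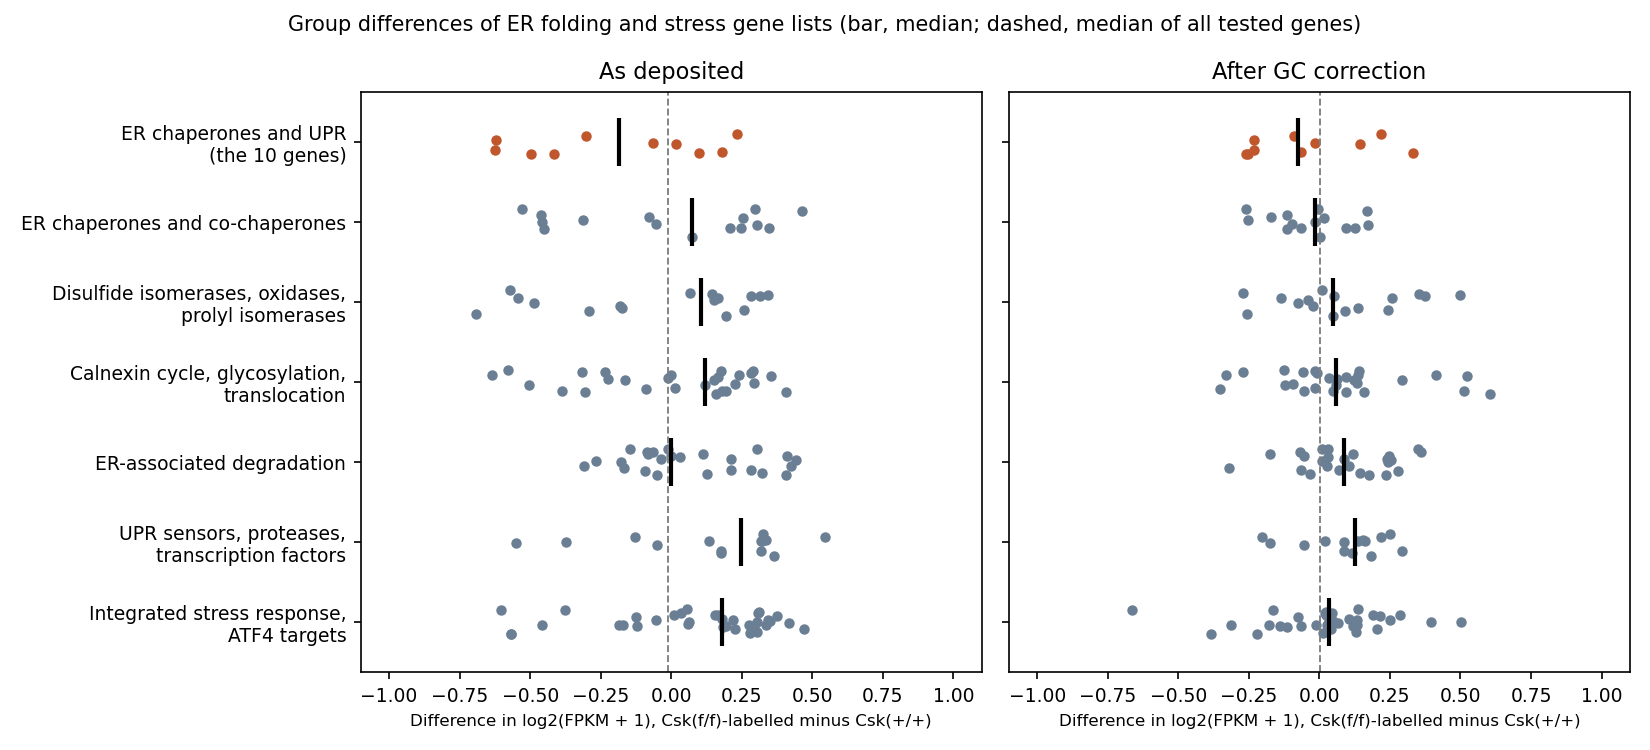
Log2 difference, Csk(f/f)-labelled minus Csk(+/+), of each tested gene in the 10-gene set (orange) and in the 6 wider lists (grey-blue), as deposited and after GC correction, with a bar at each list's median and a dashed line at the median of all tested genes. The median of the 10 genes lies at -0.18 as deposited and -0.08 after the correction, and the lists spread to both sides of 0 in both panels.

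Plasma cells are the B lineage cells richest in ER chaperones, so their markers are given beside these values. The 9 plasma cell markers summed to 637 to 953 FPKM in Csk(+/+) and 728 to 808 in the Csk(f/f)-labelled libraries, which overlapped. Most of that sum was Mzb1, listed as 2010001M09Rik (383, 411 and 653 FPKM, then 543 and 480). Prdm1, Sdc1 and Tnfrsf17, the defining genes, were each under 1 FPKM in every library. Igj, the joining chain, had lower values with the Csk(f/f) label (91.1 and 79.5 FPKM, against 119 to 157), and Fam46c had higher ones (11.1 and 14.1, against 5.86 to 7.76). After the GC correction Igj went from -0.64 to -0.13 on the log2 scale and overlapped, and Fam46c from 0.76 to 0.82 without overlap. Irf4 (12.1, 13.1 and 7.20 FPKM, then 13.2 and 17.3) was higher without overlap on both scales, at 0.49 and then 0.61. Mzb1 and Slpi overlapped on both scales. These markers were chosen after earlier results were known.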

How the data were processed

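Expression was measured by RNA sequencing in 5 libraries of sorted light zone B cells, 3 labelled Csk(+/+) and 2 Csk(f/f). The authors deposited FPKM for each gene. Per the submitters' processing notes, the tools were TopHat2 2.0.8 and Cufflinks 2.1.1 and the build mm9. The annotation, scaling between libraries and use of strand are not given in the sources used here. Each of the 5 columns was matched to a sample by its title. 1 line repeating a header was left out. Some marker genes are not reported here. Limma p-values set each group difference against the spread between libraries within the groups. That spread is moderated by a prior drawn from all tested genes.

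Genes at 1 FPKM or more in 2 libraries were tested on log2(FPKM + 1), which understates changes of low genes, with limma 3.58.1 in R 4.3.3 (trended prior, Benjamini-Hochberg over all tested genes, threshold 0.05). The code was tested on simulated data. For the GC correction, log2 values minus the gene mean were smoothed by lowess (span 0.3) on the GC content of the longest GENCODE M21 transcript (found by name for 98.8% of tested genes), and the curve was taken off library by library. Promoters came from RefSeq (GRCm38.p6). No coordinates were used with the mm9 values. Depth came from the step of 1 fragment in genes of at least 1500 nt.

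The members and lists were chosen with earlier results of these data known, so lists carry counts and medians without tests. Named were the 10 genes, the 3 smallest p-values of each list, a set of known stress genes, and the 6 genes nearest to Hspa5. Of the 148 listed pathway genes 132 were tested. Alternatives were other pseudocounts, filters, scalings, priors, library weights, the replicate number as a block, the GC correction and each library left out.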

Additional observations from a re-analysis of the deposited data

How the results depend on the processing

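Under 17 alternatives Hspa5, Hsp90b1, Canx, Pdia3, Pdia6 and Atf6 kept a negative and Calr a positive difference. Of the 10 genes, 2 (Hspa5 and Canx) passed an adjusted p under 0.05 with library weights (adjusted p = 0.0444 for both) and with the replicate block (0.0484 and 0.0437), and 0 under the other 15. Genes lower at an unadjusted p under 0.05 numbered 0 with the GC correction, 2 with it and without Csk(+/+) replicate 3, 3 with it and the replicate block (Hspa5, Canx and Pdia3), and 0 to 4 over the libraries left out. Genes higher numbered 1 with library weights, 1 with GC correction and block, 1 with the GC correction without Csk(+/+) replicate 3, and 0 to 1 over the libraries left out.

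Over all tested genes 8 passed, against 5 without a filter, 671 with weights, 492 with the block, 162 with GC correction and block, 40 with the GC correction without Csk(+/+) replicate 3, and 5 to 411 over the libraries left out, 411 being without Csk(+/+) replicate 3. In the wider lists 0 passed, against 9 with weights, 3 with the block, 4 with GC correction and block, 1 with the GC correction without Csk(+/+) replicate 3, and 0 to 5 over the libraries left out. The cause of these counts was not tested.

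The Csk difference turned to -0.14 with the GC correction, -0.074 with it and the block and -0.075 with it and without Csk(+/+) replicate 3. Pdia4 turned to -0.027 with quantile normalization, -0.077 with weights and -0.11 with the block, and ranged from -0.11 (without Csk(+/+) replicate 3) to 0.090 over the libraries left out, with -0.02 without Csk(f/f) replicate 2. Atf4 turned to -0.064 with the GC correction, -0.16 with it and the block and -0.16 with it and without Csk(+/+) replicate 3. Ddit3 turned to -0.053 with weights and -0.086 with the block, and ranged from -0.086 (without Csk(+/+) replicate 3) to 0.29 over the libraries left out. The cause was not tested.

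Only 2 replicate numbers are shared, and deviations of same-numbered libraries correlated at -0.13 and 0.11. Deviations of 2 libraries from their own mean are equal and opposite, so these values cannot decide on a pairing. As the labels state no pairing, the replicate number was not taken as one. With it as a block, Csk(+/+) replicate 3 has no partner, and the fitted differences equal those without that library. At 2 libraries labelled Csk(f/f), an interval such as that of Ddit3 (-0.45 to 0.65) leaves changes of that size undetectable.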
